A study of Mus musculus with 28 samples.

Results

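The genes followed here in sorted retinal microglia were 10 members of families named Schlafen and lymphocyte antigen: 6 Schlafen genes (Slfn1, Slfn2, Slfn4, Slfn5, Slfn8 and Slfn9), 3 Ly6 genes (Ly6a, Ly6e and Ly6i) and Ly86. They were taken by symbol, 10 of the 40021 genes listed, and all 10 were found. The microglia came from single retinas of heterozygous male Cx3cr1CreER:R26-tdTomato mice on a C57BL/6 background, in which tamoxifen drops on the eye switch on the red reporter tdTomato in cells that use the Cx3cr1 promoter. Live cells bright for tdTomato and negative for the dead-cell dye DRAQ7 were sorted from 10 naïve retinas and from retinas with endotoxin-induced uveitis (EIU), an inflammation of the eye caused by injecting bacterial lipopolysaccharide (LPS) into the vitreous. EIU retinas were taken at 4 h (6 retinas), 18 h (5 retinas) and 2 weeks (7 retinas), across 2 experiments that each held every group. All groups, naïve retinas included, carried both alleles and the tamoxifen treatment. By the study's methods these were young adult mice that had received the tamoxifen weeks before the injection, by a schedule the study chose for labelling microglia and not infiltrating cells. The Cx3cr1 promoter is also known to be used by some blood monocytes. The labels give the side of each eye but not which retinas share a mouse, so the p-values below measure only the spread between retinas.

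Schlafen proteins are found inside the cell and are best known for restraining cell growth and for being switched on by type I interferon. The mouse genes fall into short, intermediate and long forms, and the long forms carry an extra helicase-like part. Ly6 proteins are small, cysteine-rich proteins held on the outer cell surface by a lipid anchor, and several are interferon-inducible markers of blood cell types. Ly86 shares only the "lymphocyte antigen" name with them: it encodes MD-1, a secreted protein that binds the Toll-like receptor relative RP105 (Cd180) and is related to MD-2 (Ly96), the partner of the LPS receptor TLR4.

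Levels are given in RPKM, a read count scaled to the length of the transcript and to the number of mapped reads in the library, which allows genes of different length to be set side by side. The retinas held 7510000 to 19700000 alignments, and 6552 to 11825 genes reached 1 RPKM. There were 4 retinas that stood apart with fewer than 8000 such genes: naïve retinas 3 and 4, 18 h retina 4 and 2 weeks retina 1. All 10 listed microglia markers, P2ry12, Tmem119 and Cx3cr1 among them, reached 1 RPKM in each group, and their summed level was 6712 to 13381 RPKM in naïve retinas. Rod photoreceptor markers were present too, summing to 286 to 5097 RPKM in naïve retinas, as were markers of Müller glia (273 to 4974 RPKM). Median rod sums were 1749, 2870, 1234 and 2360 RPKM in naïve, 4 h, 18 h and 2 weeks retinas. Those of Müller glia were 1814, 1268, 1027 and 1779 RPKM, with a highest sum of 10140 RPKM at 2 weeks. The part of these cells in the group differences was not tested. Differences between groups are log2 fold changes of log2(RPKM + 1), which understate changes of low genes. They were tested with limma over the 13164 genes that reached 1 RPKM in at least 5 retinas, and a gene passed at a Benjamini-Hochberg adjusted p of at most 0.05 and a change of at least 2-fold. Of the 10 genes 9 entered the test, and Slfn4 was too low. In these sorted pools, fewer cells of a kind and less RNA per cell cannot be told apart.

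The 6 Schlafen genes lie together on mouse chromosome 11 (build GRCm38, GENCODE genes): Slfn5 at chr11:82951349-82964840 on the forward strand, Slfn9 at chr11:82978390-82991830 and Slfn8 at chr11:83002158-83020810 on the reverse strand, and then Slfn2 at chr11:83065112-83070678, Slfn1 at chr11:83116849-83122670 and Slfn4 at chr11:83175186-83190216 on the forward strand. Their longest coding sequences had 1014 bases in Slfn1, 1137 in Slfn2, 1809 in Slfn4, 2655 in Slfn5 and 2733 in both Slfn8 and Slfn9. Slfn8 and Slfn9 were identical at 92.7% of aligned coding bases, against 62.7% for Slfn5 and Slfn8 and 71.7% for Slfn1 and Slfn2. The bases before the start of 4 of these genes are shown because the long genes Slfn5, Slfn8 and Slfn9 had a sequence feature in common that Slfn2 lacked. They are from RefSeq (GRCm38.p6), 5′ to 3′ on the gene's own strand, at chr11:82951852-82951984 for Slfn5, chr11:83020811-83021060 for Slfn8, chr11:82991831-82992080 for Slfn9 and chr11:83064862-83065111 for Slfn2. The Slfn5 stretch lies before the start of its RefSeq transcript but inside the longer GENCODE span given above, in an intron of a non-coding Slfn5 transcript, and it ends where the next exon of that transcript begins. Capitals mark a match to GAAA, any 2 bases and GAAA again, the core letters of the interferon-stimulated response element, on either strand.
Slfn5: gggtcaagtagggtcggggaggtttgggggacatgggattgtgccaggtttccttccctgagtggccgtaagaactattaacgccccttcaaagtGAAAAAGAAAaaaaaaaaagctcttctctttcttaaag
Slfn8: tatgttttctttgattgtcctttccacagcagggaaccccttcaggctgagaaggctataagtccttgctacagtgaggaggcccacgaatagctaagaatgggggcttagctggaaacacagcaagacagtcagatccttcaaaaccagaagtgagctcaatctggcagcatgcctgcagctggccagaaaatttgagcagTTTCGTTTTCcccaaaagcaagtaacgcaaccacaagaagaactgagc
Slfn9: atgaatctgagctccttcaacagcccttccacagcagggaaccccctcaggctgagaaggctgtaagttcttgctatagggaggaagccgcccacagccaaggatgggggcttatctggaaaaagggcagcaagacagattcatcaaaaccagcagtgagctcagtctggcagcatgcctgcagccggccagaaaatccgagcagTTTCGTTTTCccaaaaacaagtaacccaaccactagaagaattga
Slfn2: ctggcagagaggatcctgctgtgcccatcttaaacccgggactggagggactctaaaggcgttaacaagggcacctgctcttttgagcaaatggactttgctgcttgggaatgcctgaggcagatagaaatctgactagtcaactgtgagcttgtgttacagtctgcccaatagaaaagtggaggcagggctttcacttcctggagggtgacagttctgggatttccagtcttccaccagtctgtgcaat

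Counted from the RefSeq starts, the match began 155 bases before that of Slfn5 on the forward strand, 48 bases before the first and 136 bases before the second of the 2 starts of Slfn8, and 45 bases before that of Slfn9, in Slfn8 and Slfn9 on the reverse strand with the same 10 letters. Start regions were on hand for 7 of the 10 genes, all but Ly6a, Ly6e and Ly6i. Slfn1, Slfn2, Slfn4 and Ly86 held no match in the window searched, which ran from 250 before to 50 after the start. Of all 32851 such mouse windows, 3.44% held one. Neither TTCNNNGAA, the core of the interferon-gamma activated site (8.30% of windows), nor the NF-kB form of GGGA, any 2 bases and TTCC (1.47%) matched in any of the 7 genes, searched on both strands. These matches describe letters and are not evidence that a factor binds. The start regions of Slfn8 and Slfn9 were themselves alike, with 85.1% of aligned bases the same.

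The Ly6 genes lie on chromosome 15 (GRCm38), Ly6e at chr15:74955051-74959905 on the forward strand and Ly6i at chr15:74979534-74983430 and Ly6a at chr15:74994877-74998031 on the reverse strand, and Ly86 lies alone at chr13:37345208-37419036. Ly6a and Ly6i each have 405 coding bases, and 86.4% of them were the same. The longest run shared without a mismatch, bases 50 to 129 of both coding sequences, is shown because it is where a read cannot tell these paralogs apart.
Ly6a and Ly6i: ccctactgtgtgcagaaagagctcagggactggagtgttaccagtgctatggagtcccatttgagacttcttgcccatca

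Reads were 75 bases long before the authors trimmed them. Shorter reads can match more copies, so the shares below, counted on 75 bases, can understate the sharing. Of the distinct 75-base stretches in Ly6i transcripts, 0.519% also occurred in Ly6a, and of those in Ly6a 5.87% occurred in Ly6c1. For Slfn9 2.62% were shared with Slfn8 and 4.48% with the pseudogene Slfn10-ps, and for Slfn8 3.68% were shared with Slfn9 and 4.98% with Slfn10-ps. Slfn5 overlaps the antisense gene Slfn5os, which held 6.59% of its stretches. Slfn2 overlaps the antisense gene Gm20234, with no stretch in common, and shared 1.7% with Slfn4. The library kit does not keep strand, and the quantification could divide reads between copies, so the levels of Slfn8, Slfn9 and Ly6a are uncertain by what such sharing allows, and reads from the stretches of Slfn5 that Slfn5os holds cannot be told from those of that gene.

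Naïve microglia used these genes at very different levels. Ly86 was the highest, at 206, 440 and 530 RPKM for the lowest, median and highest of 10 naïve retinas. Ly6e followed at 59.9, 278 and 557 RPKM, and Slfn2 at 0, 26.3 and 42.4 RPKM. Behind them, by mean log2 level, came Slfn8, Ly6a, Slfn5, Slfn1, Slfn9, Ly6i and Slfn4, with medians of 11.4, 6.44, 1.43, 0.0708, 0.534, 0.273 and 0 RPKM. Of the 9 pairs of neighbours in this order only Ly6e and Slfn2 differed beyond their spread, by 4.17 ± 0.93 on the log2 scale (SD, higher in 10 of 10 retinas; exact sign-flip permutation test, two-sided, adjusted p = 0.0176 over 9 pairs). The pairs were set by the means of these same retinas, so the test is not an independent check of the order. The naïve retinas of both experiments were not alike for 3 of the genes. Ly6e ran from 59.9 to 293 RPKM in the 6 naïve retinas of experiment 1 and from 409 to 557 RPKM in the 4 of experiment 2. Slfn2 ran from 0 to 26.4 and from 27.2 to 42.4 RPKM, and Slfn9 from 0 to 0.734 and from 1.26 to 2.02 RPKM, in the same order. The ranges did not overlap in any of these 3 of the 9 tested genes, all higher in experiment 2, where 5.51% of all genes tested were higher and 0.995% lower without overlap. Naïve retinas 3 to 6, all of experiment 1, had 6552 to 8562 genes at 1 RPKM, against 11129 to 11429 in experiment 2. They held 0 to 8.38 RPKM of Slfn2 and 59.9 to 168 RPKM of Ly6e. Naïve retinas 1 and 2 had 11825 and 10358 such genes, and held 26.2 and 26.4 RPKM of Slfn2. The part of this in the differences was not tested.

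At 4 h, 4 of the 9 tested genes passed against naïve retinas, where 8.08% of all genes tested did. Slfn2, Slfn5 and Slfn9 rose and Ly86 fell. Across all genes tested, 3.68% passed as higher and 4.39% as lower. The median log2 change of the 9 genes was 0.92, and that of all genes tested was -0.11.

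Slfn2, a short Schlafen gene needed to keep T cells and monocytes quiescent, changed the most of the 9 at 4 h. The 6 retinas at 4 h held 505, 127, 151, 158, 413 and 212 RPKM. Every one of them lay above the highest naïve retina, at 42.4 RPKM, a separation seen in 1.65% of all genes tested. None of the 9 genes had all 4 h retinas below all naïve ones, where 1.42% of all genes tested did. The log2 fold change was 4.09 ± 0.81 (SE; limma, adjusted p = 0.00076), and it was 4.93 in experiment 1 and 2.78 in experiment 2. At 18 h the retinas held 79.2, 84.5, 190, 14.7 and 118 RPKM, with 4 of 5 above all naïve retinas and retina 4, at 14.7 RPKM, within their range. This was a log2 difference of 2.5 ± 0.86 with an adjusted p of 0.094, which did not pass. It passed in 5 of 15 other settings and in 2 of 28 fits with 1 retina left out. Among the settings, the adjusted p was 0.019 with experiment as a covariate. It was 0.018 without the retinas of fewer than 8000 genes, which were set apart after seeing the data. The adjusted p was 0.042 without 18 h retina 4 alone and 0.044 without 2 weeks retina 1 alone. At 2 weeks the lowest, median and highest of 7 retinas were 0, 32.6 and 76.2 RPKM, which spanned the naïve range, and the log2 difference was 0.28 ± 0.77 (adjusted p = 1).

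Slfn1, the other short Schlafen gene and the one first linked to arrested growth of thymocytes, was low and patchy. In naïve retinas 5 of 10 were listed at 0, and the highest held 6.90 RPKM. The 4 h retinas held 0.833, 6.84, 7.79, 1.69, 4.26 and 0 RPKM, and the 18 h retinas 3.53, 21.1, 15.8, 0 and 14.1 RPKM. At 18 h 3 of 5 retinas lay above all naïve ones and retina 4 was at 0. The log2 difference of 2.05 ± 0.69 at 18 h did not pass (limma, adjusted p = 0.083). It passed in 4 of 15 other settings and in 2 of 28 fits with 1 retina left out. In those fits its adjusted p was 0.0099 without 18 h retina 4 and 0.044 without naïve retina 5. At 2 weeks the highest retina held 5.46 RPKM and the log2 difference was 0.16 ± 0.62 (adjusted p = 1).

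Slfn4, the intermediate form, which is known from monocytes and macrophages, was close to absent. A read on a transcript of its median length, 3703 bases, was worth 0.0137 to 0.0360 RPKM at these depths. Of 10 naïve retinas 9 were listed at 0, and the other held 0.0283 RPKM. The 18 h retinas held 0, 0.158, 0.928, 0 and 2.22 RPKM, so 3 of 5 exceeded every naïve retina. With no filter on low values, the log2 difference at 18 h was 0.57 ± 0.16 and did not pass (adjusted p = 0.093).

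**Figure D1:**
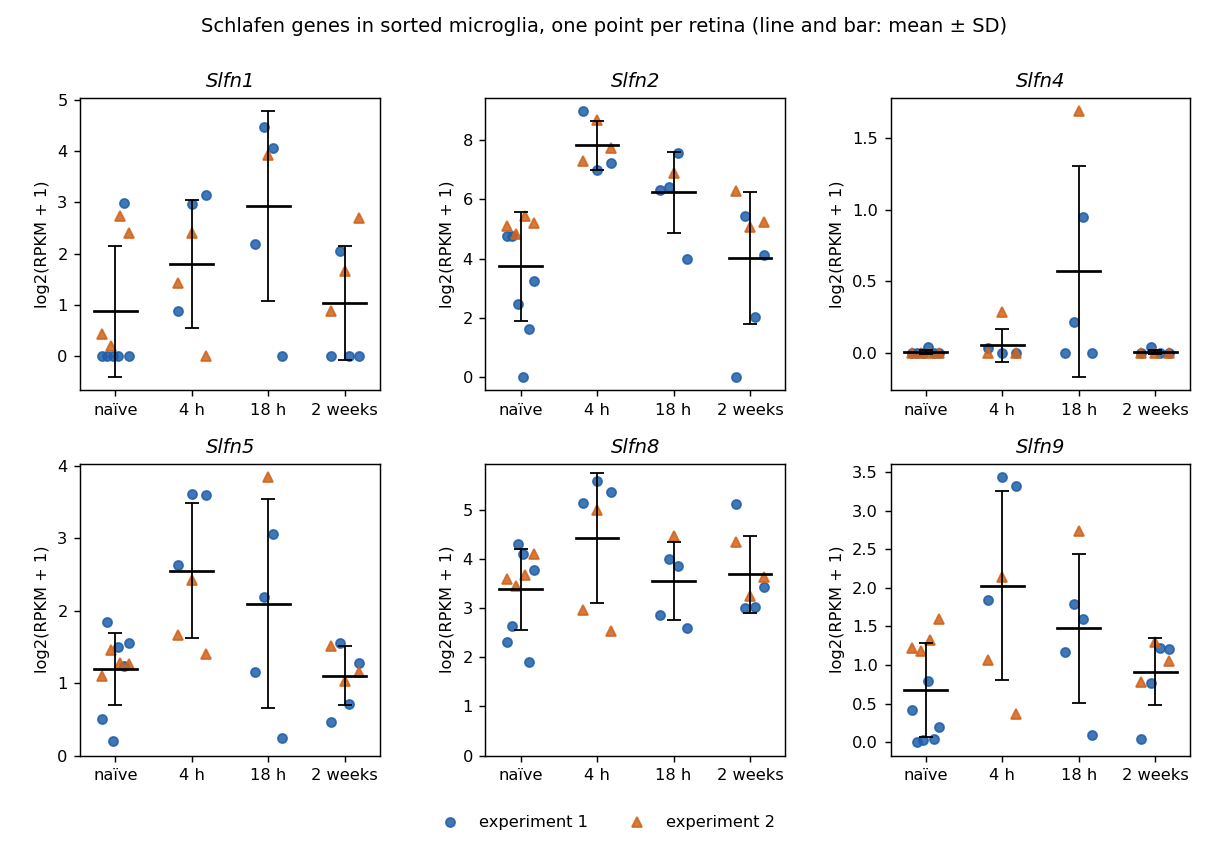
Level of each Schlafen gene as log2(RPKM + 1) by group, with a point for each retina (circles, experiment 1; triangles, experiment 2), a line at the group mean and a bar for the SD. All 6 retinas at 4 h lie above the naïve retinas for Slfn2, while for Slfn5, Slfn8 and Slfn9 the circles at 4 h sit high and the triangles reach down to the naïve range.

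At 4 h the levels of the long genes Slfn5, Slfn8 and Slfn9 were higher in the retinas of experiment 1 than in most of experiment 2. For Slfn5, a nuclear Schlafen protein, the 3 retinas of experiment 1 held 5.2, 11.3 and 11.1 RPKM and the 3 of experiment 2 held 2.16, 4.37 and 1.65 RPKM, against at most 2.59 RPKM in naïve retinas. Slfn8 stood at 34.1, 46.7 and 39.8 RPKM in experiment 1 and at 6.82, 30.9 and 4.83 RPKM in experiment 2, against at most 18.6 RPKM in naïve retinas. Slfn9 stood at 2.59, 9.83 and 9.02 RPKM in experiment 1 and at 1.09, 3.41 and 0.284 RPKM in experiment 2, against at most 2.02 RPKM. The same 4 retinas, the 3 of experiment 1 and retina 5 of experiment 2, lay above every naïve retina in all 3 genes.

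Against naïve retinas at 4 h the log2 fold change was 1.36 ± 0.42 for Slfn5 (limma, adjusted p = 0.039) and 1.35 ± 0.41 for Slfn9 (adjusted p = 0.033), and the 1.05 ± 0.47 of Slfn8 did not pass (adjusted p = 0.20). Within experiment 1 the differences of mean log2 levels were 2.14 for Slfn5, 2.19 for Slfn8 and 2.62 for Slfn9. Within experiment 2 they were 0.55, -0.20 and -0.14. Fitted to the retinas of experiment 1 alone, Slfn9 passed (adjusted p = 0.0029) and Slfn5 did not (adjusted p = 0.061), and in experiment 2 alone neither passed (adjusted p = 0.83 and 0.20). Over other settings, the call of Slfn5 was kept in 6 of 15 and that of Slfn9 in 7 of 14. The call of Slfn5 was lost without naïve retina 1, 3 or 7 or 4 h retina 1, 2, 3 or 5 (adjusted p up to 0.12). That of Slfn9 was lost without naïve retina 2, 3, 5 or 6 or 4 h retina 1, 2, 3 or 5 (adjusted p up to 0.12). The difference between the experiments was tested itself, and none of the 9 genes passed, where 0.0988% of all genes tested did, 0.0912% with a lower effect in experiment 2. It was nearest for Slfn9, at -2.76 ± 0.64 (adjusted p = 0.092), followed by Slfn8 at -2.39 ± 0.87 (adjusted p = 0.70). The short genes had differences of the same sign, at -2.16 ± 1.42 for Slfn2 and -2.0 ± 1.28 for Slfn1, as had Slfn5 at -1.59 ± 0.73 (adjusted p = 1 for each). For Slfn2 the mean level at 4 h was alike, at 261 RPKM in each experiment. Its naïve means differed, at 11.2 RPKM in experiment 1 and 34.6 RPKM in experiment 2. The Slfn9 difference passed in 4 of 11 other settings and in 2 of 28 fits with 1 retina left out. It passed without the retinas of fewer than 8000 genes (adjusted p = 0.045), without 4 h retina 1 (adjusted p = 0.015) and without 4 h retina 5 (adjusted p = 0.022). Of the interferon-stimulated effector list described below, 31 of 32 tested genes had a lower log2 difference at 4 h in experiment 2 than in experiment 1, as had 7911 of all 13164 genes tested, and 1 of the 32 passed (Ifit1, -5.40).

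At 18 h the long genes were spread widely. Slfn5 held 1.23, 3.55, 7.34, 0.181 and 13.4 RPKM, and Slfn9 held 1.25, 2.46, 2.02, 0.0637 and 5.65 RPKM. At this time 3 of 5 retinas lay above all naïve ones for Slfn5 and for Slfn9, and retina 4 was the lowest in both. The log2 differences of 0.90 ± 0.45 for Slfn5, 0.80 ± 0.43 for Slfn9 and 0.17 ± 0.50 for Slfn8 did not pass (adjusted p from 0.29 to 0.90). At 2 weeks the medians were 1.22 RPKM for Slfn5, 9.72 for Slfn8 and 1.08 for Slfn9, and the log2 differences from naïve retinas lay between -0.09 and 0.30.

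**Figure D2:**
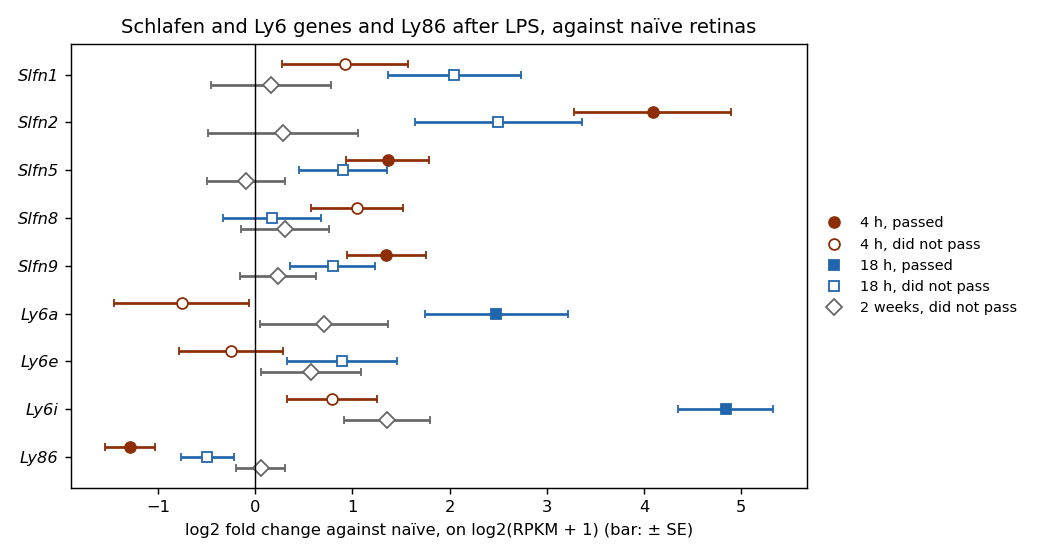
Log2 fold change against naïve retinas for each EIU time (4 h, 18 h, 2 weeks) and the 9 genes tested, with bars of 1 SE, where filled symbols passed the test. Slfn2, Slfn5, Slfn9 and Ly86 are filled at 4 h, Ly6a and Ly6i at 18 h, and none at 2 weeks.

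Ly86 was the 1 gene of the 9 that fell at 4 h. From 206 to 530 RPKM in naïve retinas (median 440), it stood at 109, 122, 130, 335, 135 and 277 RPKM at 4 h, where 4 of 6 retinas lay below every naïve one. The log2 fold change was -1.29 ± 0.26 (limma, adjusted p = 0.00093), with -1.76 in experiment 1 and -0.82 in experiment 2. In experiment 2 alone its adjusted p was 0.076. All 10 microglia markers had lower levels at 4 h, 5 of them past the test, where 7458 of all 13164 genes tested were lower and 4.39% passed as lower, and their sum stood at 2154 to 6755 RPKM against 6712 to 13381 RPKM in naïve retinas. At 18 h the sum of these markers was still 3966 to 6278 RPKM, and 6 of the 10 passed as lower, where 1.85% of all genes tested did. The part of the marker fall in that of Ly86 was not tested. At 18 h Ly86 held 319, 270, 217, 283 and 393 RPKM, all within the naïve range (log2 difference -0.49 ± 0.28, adjusted p = 0.37), and at 2 weeks its median was 400 RPKM (log2 difference 0.05 ± 0.25, adjusted p = 1).

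At 18 h, 2 of the 9 genes passed against naïve retinas, both upwards, where 4.69% of all genes tested passed, 2.84% upwards and 1.85% downwards. They were Ly6i and Ly6a, neither of which had passed at 4 h. The median log2 change of the 9 was 0.90, and that of all genes tested was -0.08.

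Ly6i had the largest log2 change of the 9 tested genes in these comparisons. It was at or near 0 in naïve retinas, with 0, 0.273 and 3.19 RPKM for the lowest, median and highest, and it held 1.5, 5.10, 0.386, 2.72, 1.27 and 0.896 RPKM at 4 h. At 18 h the 5 retinas held 70.1, 50.8, 38.0, 33.5 and 31.5 RPKM. All 5 lay above every naïve and every 4 h retina, a separation seen in 2.05% and 4.84% of all genes tested. None of the 9 genes had its 18 h retinas all below the naïve ones (1.3% of all genes tested) or all below the 4 h ones (2.79%). The log2 fold change was 4.84 ± 0.49 against naïve retinas (limma, adjusted p = 4.2e-08) and 4.05 ± 0.54 against 4 h (adjusted p = 5.9e-06), and the difference from naïve retinas was 5.23 within experiment 1 and 3.98 within experiment 2, which had 1 retina at 18 h. At 2 weeks the retinas held 0.350, 5.27, 4.10, 0, 3.21, 4.29 and 13.7 RPKM, all below the 18 h retinas, as in 2.07% of all genes tested. The log2 fold change from 18 h to 2 weeks was -3.48 ± 0.53 (adjusted p = 7.4e-05). This fall passed in 14 of 15 other settings but not in experiment 2 alone, which had 1 retina at 18 h. At 2 weeks 5 of the 7 retinas lay above the highest naïve retina, and this log2 difference of 1.36 ± 0.44 did not pass (adjusted p = 1).

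Ly6a, known as Sca-1 and used to mark blood stem cells, went from 0, 6.44 and 18.6 RPKM (lowest, median and highest naïve retina) to 35.1, 15.4, 21.7, 13.4 and 59.4 RPKM at 18 h. There 3 of 5 retinas exceeded all naïve ones. The log2 fold change, which passed in 9 of 15 other settings, was 2.48 ± 0.74 (limma, adjusted p = 0.044). Leaving out naïve retina 1, 3, 5 or 6, 4 h retina 1, 5 or 6, 18 h retina 1, 2, 3 or 5, or 2 weeks retina 2, 3, 5, 6 or 7 took this adjusted p above 0.05, up to 0.14 without 18 h retina 5. Within experiment 1 the difference of mean log2 levels was 2.88 (adjusted p = 0.14 in those retinas alone) and within experiment 2, with 1 retina at 18 h, it was 2.64. At 4 h the values were 2.05, 0, 0, 6.62, 3.37 and 3.24 RPKM, all below the 18 h retinas, and the log2 fold change from 4 h to 18 h was 3.24 ± 0.81 (adjusted p = 0.013), which passed with each retina left out but not in experiment 1 alone (adjusted p = 0.10). At 2 weeks the lowest, median and highest retinas held 0, 8.16 and 29.4 RPKM. Of these 7, 6 lay below all 18 h retinas, and the log2 difference of -1.77 ± 0.79 between 18 h and 2 weeks did not pass (adjusted p = 0.29).

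Ly6e, which encodes a surface protein that serves as a receptor in placenta formation and affects virus entry, was abundant at every time and passed in no comparison. At 18 h its retinas held 673, 551, 617, 86.9 and 856 RPKM, with 3 of 5 above every naïve retina and retina 4 far below the other 4. The log2 difference was 0.89 ± 0.57 against naïve retinas (adjusted p = 0.44) and 1.14 ± 0.63 against 4 h (adjusted p = 0.39). The difference from 4 h passed in 2 of 15 other settings and in 0 of 28 fits with 1 retina left out. Without the retinas of fewer than 8000 genes, it had an adjusted p of 0.011.

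Markers of other white blood cells were measured in the same retinas. The 10 lymphocyte markers summed to 9.29 to 96.4 RPKM in the 5 retinas at 18 h, against 0 to 1.21 RPKM in naïve retinas, with Cd79a, a B cell receptor gene, at 0 in all 5 retinas at 18 h. Nkg7, a granule gene of natural killer and T cells and the 1 marker of that list that could be tested, was at 0 in all naïve retinas and at 5.77 to 86.4 RPKM at 18 h. Monocyte markers summed to 0.366 to 29.8 RPKM in naïve retinas, 2.73 to 80.5 RPKM at 4 h and 10.3 to 55.8 RPKM at 18 h, ranges that overlapped. Of the 10 listed monocyte markers 4 could be tested, and the others, Ly6c2 among them, were too low. Cd44 passed upwards at 4 h, and Cd44 and Clec4e at 18 h, where 3.68% and 2.84% of all genes tested did. At both times 3 of the 4 had higher levels than in naïve retinas and 1, F13a1, had lower levels. Its log2 differences were -0.92 at 4 h and -1.92 at 18 h, and neither passed. Cd44 is not a marker of monocytes alone, since the study reports its protein as raised in the labelled microglia during EIU. Neutrophil markers summed to 0 to 0.200 RPKM in naïve retinas, 0 to 0.264 RPKM at 4 h and 0 to 17.1 RPKM at 18 h. Endothelial markers, whose list includes Ly6c1, summed to 0.291 to 2.38 RPKM at 18 h and to 0.174 to 4.11 RPKM in naïve retinas. The part of these cells in the levels of the Schlafen genes, Ly6i and Ly6a was not tested.

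**Figure D3:**
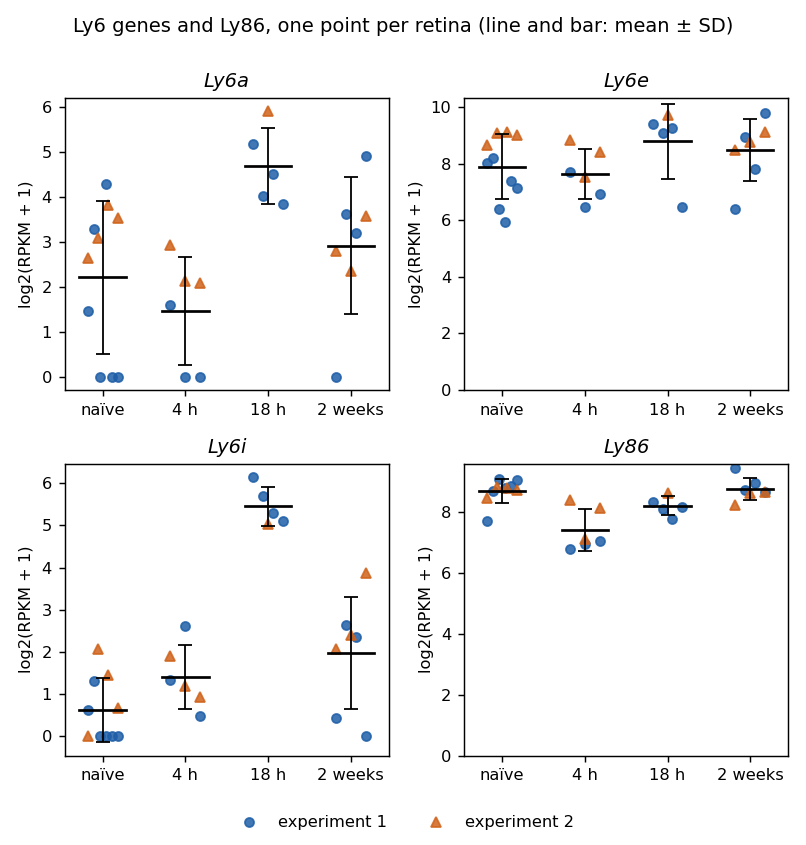
Level of Ly6a, Ly6e, Ly6i and Ly86 as log2(RPKM + 1) by group, with a point for each retina (circles, experiment 1; triangles, experiment 2), a line at the group mean and a bar for the SD. For Ly6i the 5 retinas at 18 h stand above all others, while Ly86 is lowest at 4 h.

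Between the EIU times, 2 of the 9 genes passed from 4 h to 18 h, Ly6a and Ly6i, both upwards, where 5.42% of all genes tested passed, 2.92% upwards and 2.51% downwards. Slfn2 had a log2 difference of -1.59 ± 0.95 and Ly86 of 0.80 ± 0.30 over the same interval, and neither passed (adjusted p = 0.44 and 0.15). From 18 h to 2 weeks Ly6i alone passed, downwards, where 2.65% of all genes tested passed, 1.55% downwards and 1.1% upwards, and no gene of the 9 had all 2 weeks retinas above all 18 h ones (2.09% of all genes tested). At 2 weeks none of the 9 passed against naïve retinas by limma, where 0.0076% of all genes tested did.

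Likeness over the 28 retinas was measured for all pairs of the 9 genes. Slfn5 and Slfn9 had the highest Pearson r of any pair of the 9 genes, 0.82, on log2 levels. Slfn8 and Slfn9 had 0.64 and share some reads, Slfn5 and Slfn8 had 0.55, and Slfn2 and Slfn8 had 0.23. Ly6a and Ly6e had 0.67 and Ly6a and Ly6i had 0.59. Ly86 ran opposite to the Schlafen genes, from -0.33 with Slfn1 to -0.74 with Slfn2. These values describe retinas that share groups, experiments and depth, and have no test.

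**Figure D4:**
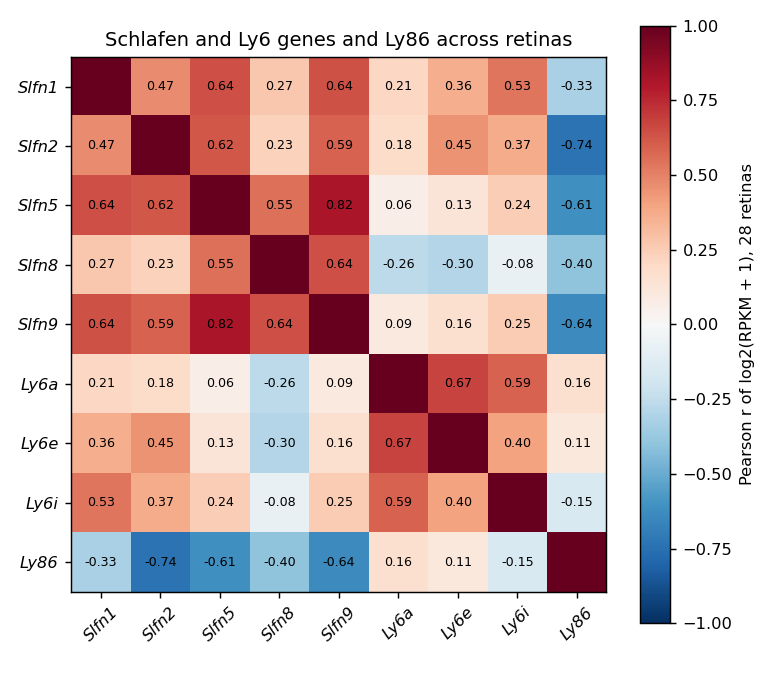
Pearson r between log2(RPKM + 1) levels of each pair of the 9 genes over 28 retinas, from blue (negative) to red (positive). Slfn5 and Slfn9 stand out at 0.82, and the Ly86 row is negative with every Schlafen gene.

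For each tested gene, the 2 genes outside the set with the most similar log2 levels over the 28 retinas are given with their Pearson r. Slfn9 was closest to Trim30c (0.91) and to Usp18 (0.85), a brake on interferon receptor signalling. Slfn5 was closest to Ifit3 (0.81), an interferon-induced antiviral gene, and Acp5 (0.79). Slfn2 was closest to the chemokine gene Cxcl16 (0.93) and to Trex1 (0.93), which encodes a DNA-degrading enzyme. Ly6i was closest to the paired receptor genes Pilrb2 (0.86) and Pilrb1 (0.85), and Ly6a to Tmem14c (0.86) and the immunoproteasome subunit gene Psmb10 (0.82). Ly6e was closest to Brk1 (0.94) and Tmem219 (0.91), Ly86 to Itga6 and Sft2d1 (0.90 each), Slfn1 to Klra2 (0.81) and Copb1 (0.78), and Slfn8 to Rev1 (0.81) and Sppl2a (0.71).

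Of the 4 other Schlafen genes listed, Slfn10-ps alone could be tested, and it did not pass in any comparison (log2 difference 0.49 at 4 h and 0.70 at 18 h). Of 37 other genes of the Ly6 and uPAR family, 8 could be tested. Plaur, the receptor of urokinase, rose at 4 h by 5.69 ± 0.70 (adjusted p = 5.0e-07), from at most 37.5 RPKM in naïve retinas to 128 to 820 RPKM, and was still 2.54 ± 0.74 higher at 18 h (adjusted p = 0.039). Ly6k was listed at 0 in all 10 naïve retinas and reached 0 to 16.0 RPKM at 18 h (adjusted p = 0.018). The other 6 passed at neither time.

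The receptors that sense LPS include the partner and the relative of MD-1. All 9 genes of that list could be tested, and at 4 h 1 passed upwards and 2 downwards, against 3.68% and 4.39% of all genes tested. Cd14, the co-receptor that hands LPS to TLR4, rose by 3.82 ± 0.42 (adjusted p = 6.4e-08), from 223 to 661 RPKM in naïve retinas to 1874 to 14678 RPKM. Tlr4 fell by 2.15 on the log2 scale (SE 0.43, adjusted p = 0.00097), from a naïve median of 8.94 RPKM to a 4 h median of 1.05 RPKM, and Ly96 fell by 1.33 (SE 0.39, adjusted p = 0.024). Cd180, the receptor bound by MD-1, named here after its values were seen, had a log2 difference of -0.55 ± 0.50 at 4 h and did not pass (adjusted p = 0.59). None of the 9 passed at 18 h. From 4 h to 18 h Tlr4 and Ly96 rose by 2.02 and 1.57, and Cd14 fell by 3.58, on the log2 scale (adjusted p = 0.014, 0.034 and 8.8e-06).

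Interferon is known to switch on several Schlafen and Ly6 genes in other settings. Of 14 tested ligands, receptors and factors, 3 passed at 4 h, all upwards, against 3.68% of all genes tested. Ifnb1, which encodes interferon-beta, was at 0 in 7 of 10 naïve retinas, at 9.71 to 522 RPKM at 4 h (log2 fold change 5.64 ± 0.72, adjusted p = 1.1e-06) and at 0 in all 5 retinas at 18 h. The transcription factor gene Irf1 rose by 2.71 ± 0.63 (adjusted p = 0.0043) and the feedback inhibitor gene Socs1 by 1.73 ± 0.46 (adjusted p = 0.013). At 18 h Irf7, a factor that drives interferon-alpha genes, was the 1 of 14 to pass, at 3.05 ± 0.69 (adjusted p = 0.0060), against 2.84% of all genes tested upwards. From 4 h to 18 h Ifnb1, Irf1 and Jak1, a receptor kinase gene, fell. Of 32 tested interferon-stimulated effectors, 15 rose at 4 h and 15 at 18 h, where 3.68% and 2.84% of all genes tested rose, and none fell. Their log2 differences ran from -0.55 (Bst2) to 8.51 (Cxcl10) at 4 h, with a median of 1.5, and from 0.21 (Parp14) to 4.21 (Ifit1) at 18 h, with a median of 1.87. From 4 h to 18 h 2 of the 32 rose and 4 fell, where 2.92% and 2.51% of all genes tested did. None passed at 2 weeks against naïve retinas, where 0.0076% of all genes tested did. From 18 h to 2 weeks 11 fell, where 1.55% of all genes tested did.

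**Figure D5:**
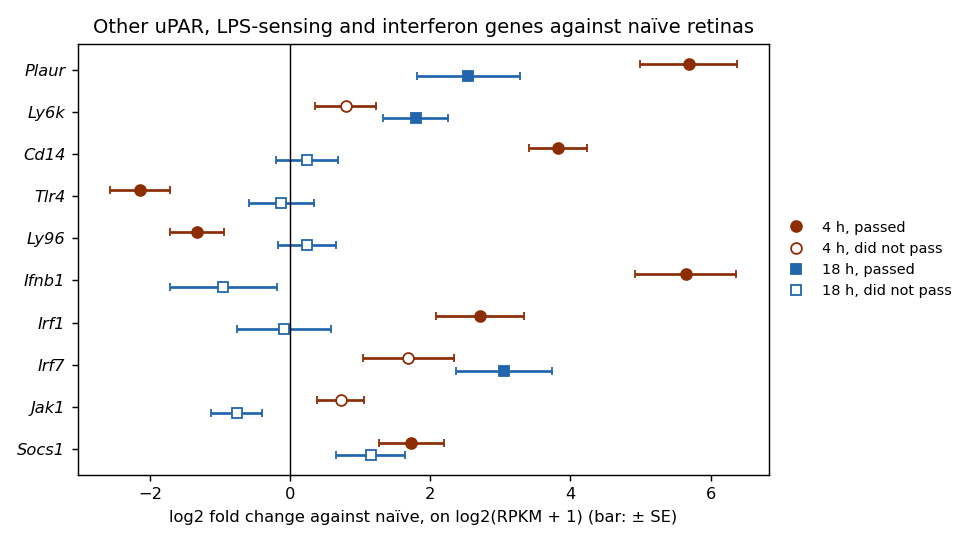
Log2 fold change against naïve retinas at 4 h and 18 h, with bars of 1 SE, for the genes of the uPAR, LPS-sensing and interferon lists that passed in any comparison, where filled symbols passed in the one shown. Plaur, Cd14 and Ifnb1 are highest at 4 h, while Irf7 and Ly6k are filled at 18 h and open at 4 h.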

How the data were processed

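Microglial mRNA from 28 single retinas was amplified with the SMART-Seq v4 kit, made into Nextera XT libraries and sequenced as single 75-base reads. Per the labels and the study's methods, the authors used bcl2fastq 2.20, trimmed reads in Partek, aligned them to mm10 with STAR 2.5.3a, assigned them to Ensembl transcripts by expectation-maximisation and deposited RPKM values. Of the deposited tables, those holding the authors' own comparisons (p-values, fold changes) were not used.

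Genes with at least 1 RPKM in at least 5 retinas were tested on log2(RPKM + 1) with limma 3.58.1 (R 4.3.3, trended variance), all 4 groups in 1 fit, with Benjamini-Hochberg adjustment. The difference between experiments at 4 h came from a fit with group and experiment combined, and passed on adjusted p alone. No deposited counts were analysed here, so count models were not used. No 2 retinas shared more than 1 value of at least 1 RPKM. The fits were tested on simulated data.

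The 10 genes and the gene lists (other Schlafen genes, other Ly6 and uPAR genes, LPS sensing, interferon ligands, receptors and factors, interferon-stimulated effectors, and cell type markers) were chosen with earlier results of these data known. Named in the text are all 10 genes, genes of the first 4 lists that passed in any comparison, the extremes of the effectors and, for each tested gene, the 2 others with the highest Pearson r. Start regions came from RefSeq, and gene positions and transcripts from GENCODE, on GRCm38, which is mm10. Alternatives were other pseudocounts and filters, covariates, experiments alone, other scalings, untransformed values, array weights and single retinas left out.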

Additional observations from a re-analysis of the deposited data

Results flagged for a closer look

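In groups of 4 to 10 retinas, a retina was singled out where its gap to the nearest other exceeded Dixon's critical share of the group's range. Of 40 gene and group pairs 5 met this. The critical shares are set for about 1 in 20 in normally spread values, which RPKM values with many at 0 need not be, so the rate by chance is not known here. Ly6a in 2 weeks retina 4 stood at 29.4 RPKM, next to 11.3 RPKM in the retina below it. Ly6i in 2 weeks retina 7 stood at 13.7 RPKM, next to 5.27 RPKM. The other 3 were all of Slfn4, at 0.218 RPKM in 4 h retina 5, 0.0303 RPKM in 2 weeks retina 2 and 0.0283 RPKM in naïve retina 4, where a read on a transcript of median length was worth 0.0137 to 0.0360 RPKM. In 2 weeks retina 2 and naïve retina 4 the gap was the whole range, as it must be where all others are at or next to 0.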

How the results depend on the processing

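Over 15 other settings and with each retina left out the calls of Slfn2 at 4 h and of Ly6i at 18 h, against naïve retinas and against 4 h, were kept. The number of genes called at 4 h was 2 (Slfn2 and Ly86) with a pseudocount of 0.1 or 10. It was the same with no filter or with equal summed RPKM, and 1 (Slfn2) in experiment 2 alone. At 18 h it was 1 (Ly6i) with a pseudocount of 0.1, no filter or eye side as a covariate. The same gene alone passed with the compared groups alone, experiment 1 alone or equal summed RPKM. The number was 4 with the replicate number as a block (Slfn1, Slfn2, Ly6a and Ly6i) or without the retinas of fewer than 8000 genes, and 5 with array weights. From 4 h to 18 h it was 1 with a pseudocount of 0.1, no filter or experiment 1 alone and 4 with array weights. From 18 h to 2 weeks it was 2 untransformed (Slfn1 and Ly6i) and 5 with array weights. The call of Ly6i over that interval was kept in 14 of 15 other settings and lost in experiment 2 alone. For the difference between experiments it was 1 with a pseudocount of 10, untransformed or without the retinas of fewer than 8000 genes, and 2 with array weights. In the naïve order, 0 neighbours differed in experiment 1 alone. The retinas of fewer than 8000 genes were set apart after seeing the data. In experiment 2 alone 18 h had 1 retina, taken to vary like the other groups, so its calls at 18 h have no replicate check. With experiment as a covariate Slfn2 passed at 18 h besides Ly6a and Ly6i. The array weights stopped before reaching their convergence tolerance, so their values are less certain. In experiment 1 alone the order rests on 6 retinas, with fewer sign flips possible. The cause of the other changes was not tested.

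With single retinas left out, 2 to 4 genes were called at 4 h, 1 to 4 at 18 h, 0 at 2 weeks, 2 from 4 h to 18 h, 1 to 2 from 18 h to 2 weeks (Slfn1 was added without 18 h retina 4, adjusted p = 0.039) and 0 to 1 between experiments, and 1 to 2 naïve neighbours differed.

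Replicate numbers gave no clear pairing of retinas. Deviations of 34 same-numbered pairs had a median r of 0.035, with 15 over 0.1. For 253 other pairs the median was 0.005, with 93 over 0.1. Some same-numbered pairs, such as naïve retina 4 and 4 h retina 4, came from different experiments. With the replicate block 3 genes passed at 4 h.

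Signs turned as follows (log2, none passing in either setting unless stated). In experiment 2 alone, at 4 h Slfn1 was -0.17, Slfn8 -0.20 and Slfn9 -0.14 (Slfn9 passed over all retinas), at 2 weeks Slfn9 was -0.28, Ly6a -0.37, Ly6e -0.19 and Ly86 -0.20, from 4 h to 18 h Slfn5 was 2.02 (adjusted p = 0.019, with 1 retina at 18 h), Slfn8 0.96 and Slfn9 1.54, and from 18 h to 2 weeks Slfn8 was -0.72 and Ly86 -0.13. With array weights, Slfn1 was -0.032 at 4 h, Slfn8 -0.13, Slfn9 -0.12, Ly6a -0.067, Ly6e -0.0040 and Ly86 -0.10 at 2 weeks, Slfn5 0.37 and Slfn9 0.25 from 4 h to 18 h, and Slfn8 -0.25 from 18 h to 2 weeks. With the replicate block, Ly6e was 0.41 at 4 h, and between experiments Slfn1 was 0.95, Ly6e 0.50 and Ly6i 2.27. With equal summed RPKM, Slfn8 was -0.12 at 18 h and Ly6a -0.12 between experiments. With quantile normalisation, Slfn9 was -0.030 at 2 weeks, and from 18 h to 2 weeks Slfn8 was -0.037 and Ly6e 0.018. Untransformed, Slfn1 was -0.072 at 2 weeks and Ly6a -0.55 RPKM between experiments, and with a pseudocount of 10 Ly6a was -0.047 between experiments. Without the retinas of fewer than 8000 genes, Ly86 was -0.0029 at 2 weeks, Slfn5 0.0061 from 4 h to 18 h, Slfn8 -0.35 from 18 h to 2 weeks and Ly6a -0.25 between experiments. With single retinas left out, 19 values of 9 differences turned sign, none of which passed. These differences ran from -0.053 to 0.41 for Slfn8 at 18 h, and at 2 weeks from -0.11 to 0.40 for Slfn1, -0.13 to 0.95 for Slfn2, -0.20 to 0.014 for Slfn5 and -0.062 to 0.14 for Ly86. From 4 h to 18 h Slfn5 ran from -0.90 to 0.0061, from 18 h to 2 weeks Slfn8 from -0.11 to 0.36 and Ly6e from -0.90 to 0.030, and between experiments Ly6a from -0.48 to 0.61.

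Equal summed RPKM moved the median of all genes tested from -0.11 to -0.28 at 4 h, from -0.08 to -0.26 at 18 h and from 0.16 to 0.33 between 18 h and 2 weeks, and the share of calls that were higher from 45.6% to 29.0%, from 60.5% to 32.4% and from 41.5% to 66.2%. Genes under 1 RPKM rest on few reads.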
